A study of Mus musculus and Homo sapiens
Mus musculus with 14 samples.

Results

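The gamma, delta, epsilon, theta and rho subunit genes of the GABA-A receptor family were followed through the mouse retina. They were chosen by symbol, as the rows Gabrg1, Gabrg3, Gabrd, Gabre, Gabrq, Gabrr1, Gabrr2 and Gabrr3. All 8 were among the 24460 genes listed for the retinal layers and among the 18415 genes listed for amacrine cells.

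The counts came from Light-Seq, in which cDNA made in a fixed tissue section is labelled with DNA barcodes by light, region by region, and then sequenced. The tissue was retina of wild-type CD1 mice in the third postnatal week, with no treatment and no genetic change. In 4 sections, all cut from 1 animal, the outer nuclear layer (ONL, rod and cone cell bodies), the bipolar cell layer (BCL, with horizontal cells and Müller glia beside the bipolar cells) and the layer of the ganglion cells (GCL, with displaced amacrine cells as well) each received a barcode, giving 12 libraries. In 5 other sections the dopaminergic amacrine cells, stained for tyrosine hydroxylase (TH+), were separated from neighbouring amacrine cells without the stain (TH-), giving 10 libraries, with only a few cell bodies behind each TH+ library and far more behind each TH- library. The study calls these sections technical replicates too and speaks of a single source animal. The p-values below therefore measure the spread between sections, not between animals.

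GABA-A receptors are chloride channels built from several subunits around a pore, and GABA is the main inhibitory transmitter of the inner retina. A gamma subunit joins alpha and beta subunits in most synaptic receptors, whereas the delta subunit takes that place in receptors outside synapses that carry tonic currents. The epsilon and theta subunits are less common and are known mainly from groups of monoaminergic and hypothalamic neurons. The rho subunits assemble without alpha or beta subunits into slow, bicuculline-insensitive receptors, long known from the axon terminals of retinal bipolar cells.

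Depth set what could be seen. A library held 193869 to 801105 unique molecular identifiers (UMIs, counted molecules) in the layers, 134394 to 200344 in the TH- population and 30317 to 87449 in the TH+ population. The labels matched the marker genes: summed bipolar markers lay between 4924 and 5647 CPM (UMIs scaled to a common library total) in the BCL against at most 418 in the ONL and 258 in the GCL, and summed ganglion cell markers between 3234 and 3577 CPM in the GCL against at most 376 elsewhere among the layers. Dopaminergic markers summed to 605 to 1154 CPM in TH+ and to 19.7 to 79.9 CPM in TH- libraries, where Slc6a3 and Ddc were at 0. Rod markers still reached 12968 to 33647 CPM in TH+ and 7429 to 19776 CPM in TH- libraries, with none of the 5 at 0. In such pooled libraries fewer cells of a type and less RNA per cell cannot be told apart.

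Over the layers the 8 genes fell into 3 patterns. The rho genes Gabrr1, Gabrr2 and Gabrr3 were highest in the BCL, the gamma genes Gabrg1 and Gabrg3 were highest in the GCL, and Gabre and Gabrq were close to 0 in every layer. Gabrd was rare, with most of its UMIs in the GCL. Together the 8 genes took 547 ± 64.0 CPM in the BCL, 201 ± 13.1 in the GCL and 56.8 ± 19.6 in the ONL (mean ± SD, n = 4 sections each).

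**Figure D1:**
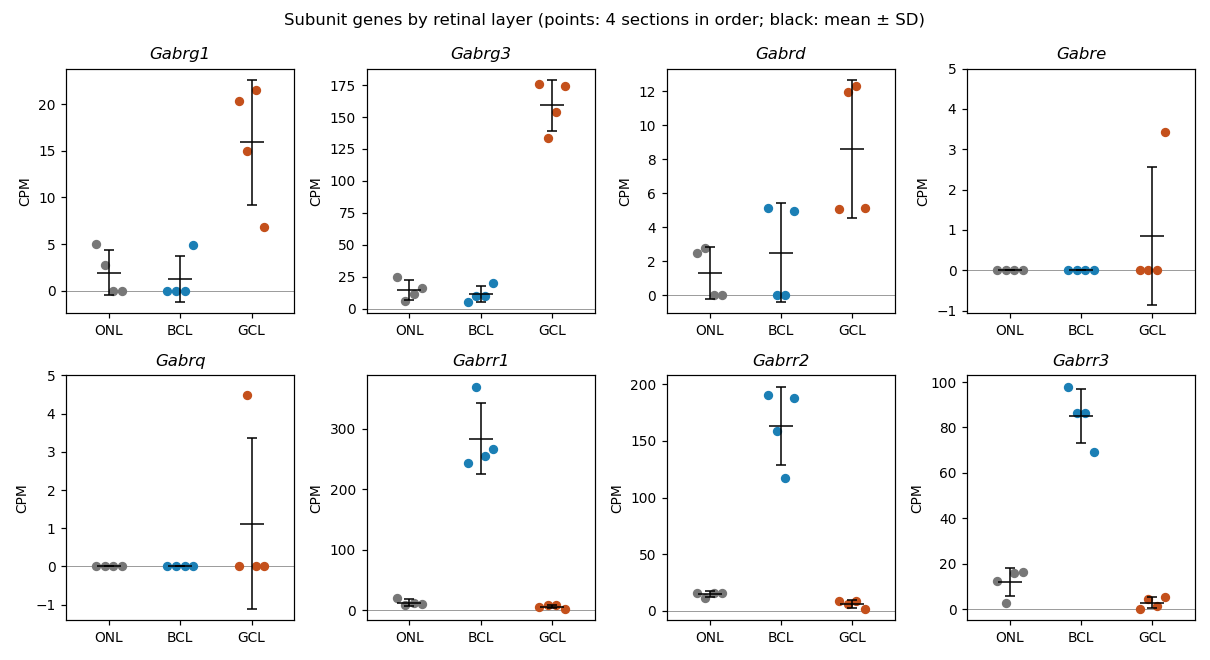
CPM of each of the 8 genes in the 4 sections of the ONL, BCL and GCL, with points in section order from left to right and black marks for the mean ± SD; every panel has its own linear axis. The rho genes stand up in the BCL, between 69.2 and 369 CPM, and Gabrg3 in the GCL, between 133 and 176 CPM.

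The rho genes were the most abundant of the 8 in the BCL. Gabrr1, which encodes the rho1 subunit, gave 47, 77, 50 and 54 UMIs in the BCL of sections 1 to 4, 16, 6, 5 and 3 in the ONL and 4, 6, 5 and 1 in the GCL. That is 283 ± 58.3 CPM in the BCL, 12.3 ± 5.25 in the ONL and 5.87 ± 3.21 in the GCL. Each BCL section stood above all ONL and GCL sections, while the ONL and GCL ranges overlapped.

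Gabrr2, the gene of the rho2 subunit, gave 37, 33, 23 and 38 UMIs in the BCL, 13, 8, 7 and 5 in the ONL and 7, 4, 6 and 1 in the GCL. Its level was 163 ± 34.4 CPM in the BCL, 14.8 ± 2.52 in the ONL and 6.46 ± 3.49 in the GCL, and here the ranges of the 3 layers did not overlap at all. Gabrr3, the gene of the rho3 subunit, was the scarcest, with 19, 18, 17 and 14 UMIs in the BCL, 10, 2, 7 and 5 in the ONL and 0, 3, 1 and 3 in the GCL. It measured 85.0 ± 11.9 CPM in the BCL, 11.8 ± 6.28 in the ONL and 2.79 ± 2.43 in the GCL. Its ONL and GCL ranges overlapped, because ONL section 2 fell to 2.77 CPM.

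The comparisons between layers were tested with edgeR's quasi-likelihood test over the 11324 genes that passed a low-count filter, with Benjamini-Hochberg adjustment over all of them. Of the 8 genes, 5 passed the filter, and Gabrd, Gabre and Gabrq did not. A gene can pass through the layer where it is high, so the counts of calls below describe these 5 genes and do not speak for all 8.

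Against the ONL, 3 of the 5 were higher in the BCL and none was higher in the ONL, where 18.2% and 18.5% of all genes tested were called in those directions. Gabrr1 was 16.8-fold higher in the BCL (log2 fold change of ONL over BCL -4.07 ± 0.24 SE, adjusted p = 2.88e-20 by edgeR's quasi-likelihood test), Gabrr2 8.76-fold (-3.13 ± 0.26, adjusted p = 6.44e-15) and Gabrr3 6.20-fold (-2.63 ± 0.35, adjusted p = 1.14e-08). Gabrg1 and Gabrg3 were not called.

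Between the BCL and the GCL the rho differences were larger. Gabrr1 was 40.7-fold, Gabrr2 21.0-fold and Gabrr3 26.4-fold higher in the BCL, at log2 values of 5.35 ± 0.27, 4.39 ± 0.29 and 4.72 ± 0.44 (adjusted p = 2.02e-23, 1.25e-18 and 2.46e-13 by the same edgeR test). The 2 gamma genes that passed the filter were called in the other direction. In the BCL against GCL comparison 16.1% of all genes were called on the BCL side and 20.4% on the GCL side.

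The small rho signal of the ONL was also above that of the GCL. The log2 fold change of ONL over GCL was 1.28 ± 0.45 for Gabrr1 (adjusted p = 0.0111), 1.26 ± 0.41 for Gabrr2 (adjusted p = 0.00673) and 2.09 ± 0.58 for Gabrr3 (adjusted p = 0.00152, all by edgeR). Between these layers 29.3% of all genes were called on the ONL side and 32.2% on the GCL side, whatever the size of the difference. Without section 1, where the ONL held 16 of its 30 Gabrr1 UMIs, Gabrr1 was no longer called (0.73, adjusted p = 0.267), and without section 4 Gabrr2 was not (0.98, adjusted p = 0.0519). Gabrr3 stayed called without any 1 section, at 1.47 without section 1 (adjusted p = 0.0479) and 2.83 without section 2 (adjusted p = 0.000174). Summed bipolar markers in the same libraries were 244 to 418 CPM in the ONL and 154 to 258 CPM in the GCL, and their part in this difference was not tested.

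**Figure D2:**
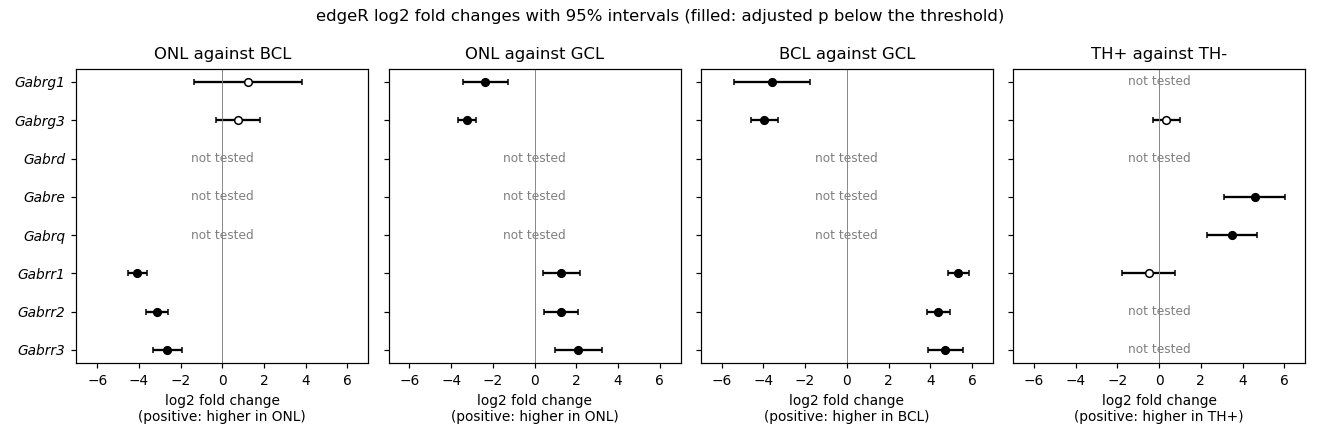
Log2 fold changes of the genes tested in each comparison, with bars for the 95% interval, filled points for calls and open points for genes not called. The rho genes lie on the BCL side by 2.63 to 4.07 against the ONL and by 4.39 to 5.35 against the GCL, and Gabre and Gabrq lie at 4.58 and 3.49 on the TH+ side.

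Gabrr2 and Gabrr1 lie side by side on mouse chromosome 4, at chr4:33062937-33096126 and chr4:33125923-33163588 of GRCm39, both on the plus strand and 29.8 kb apart, whereas Gabrr3 is alone at chr16:59227695-59284867 on the plus strand. Because the 3 genes rose together in the BCL, the 250 bases before the start of each canonical transcript are shown, with capitals for any match to one of 3 motifs on either strand: the OTX/CRX homeobox core TAATCC, the AP-2 site GCCNNNGGC and the NR4A site AAAGGTCA.
Gabrr1 (chr4:33132254-33132503, plus strand): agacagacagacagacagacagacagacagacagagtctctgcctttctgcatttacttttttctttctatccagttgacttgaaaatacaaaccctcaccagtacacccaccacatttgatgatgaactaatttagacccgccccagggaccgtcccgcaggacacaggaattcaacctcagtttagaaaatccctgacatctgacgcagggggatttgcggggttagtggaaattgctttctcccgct
Gabrr2 (chr4:33062749-33062998, plus strand): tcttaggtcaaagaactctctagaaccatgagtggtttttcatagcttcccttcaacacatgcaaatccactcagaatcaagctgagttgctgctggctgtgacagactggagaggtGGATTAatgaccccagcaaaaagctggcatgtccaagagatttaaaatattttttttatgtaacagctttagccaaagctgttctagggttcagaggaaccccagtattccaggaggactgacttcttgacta
Gabrr3 (chr16:59227445-59227694, plus strand): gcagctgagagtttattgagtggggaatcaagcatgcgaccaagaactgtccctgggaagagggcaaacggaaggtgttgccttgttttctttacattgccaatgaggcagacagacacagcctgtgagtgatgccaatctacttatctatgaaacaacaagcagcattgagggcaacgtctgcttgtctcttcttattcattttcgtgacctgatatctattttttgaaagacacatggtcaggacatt
The window of Gabrr2 held 1 match, the homeobox core on the minus strand, beginning 133 bases before the start, and the windows of Gabrr1 and Gabrr3 held none of the 3 motifs. Among 21770 protein-coding promoters of the same length, 7.0% held the homeobox core, 13.2% the AP-2 site and 1.19% the NR4A site. A match is only a run of letters in this window.

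Reads of the rho genes were separable with small exceptions. Of all stretches of 40 bases in Gabrr1 and Gabrr2 transcripts, 3.50% and 3.16% were identical between the 2 genes, and the authors discarded reads that mapped to several places. Exons of Gabrr3 overlap those of 1700022E09Rik on the opposite strand, a gene with no row in either retinal table, over 11.1% of such stretches. The study's supplement describes counting with featureCounts at its defaults, which take no account of strand, so reads of the 2 genes over this stretch cannot be told apart.

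The genes whose layer pattern lay closest to Gabrr1 and to Gabrr2 were found over the 12 libraries as the smallest root mean square difference of centred log2 CPM among 11323 other genes. For Gabrr1 they included Neurod4 at 0.29 and Lrtm1 at 0.31 log2 units, and Neurod4 encodes a transcription factor of bipolar cells. For Gabrr2 they were Scgn at 0.35, Rlbp1 at 0.38 and Cabp5 at 0.41, of which Scgn and Cabp5 encode calcium-binding proteins and Rlbp1 the retinaldehyde-binding protein of Müller glia. Gabrr3, with 24, 68 and 7 UMIs in the ONL, BCL and GCL, was under the 100 UMIs set for this search. Cabp5 and Rlbp1 also stand in the marker lists used to check the layers.

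Gabrg3, the gene of the gamma3 subunit, was the main signal of the family in the GCL. It gave 138, 89, 100 and 102 UMIs in the GCL of sections 1 to 4, 20, 4, 5 and 5 in the ONL and 1, 2, 2 and 4 in the BCL. These are 159 ± 19.97, 14.5 ± 8.21 and 11.2 ± 6.16 CPM. All GCL sections stood above all sections of the other layers, and the ONL and BCL overlapped.

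Gabrg3 was 9.35-fold higher in the GCL than in the ONL (log2 -3.23 ± 0.22 for ONL over GCL, edgeR adjusted p = 1.64e-18, and -3.81 without section 1) and 15.6-fold higher than in the BCL (-3.96 ± 0.33 for BCL over GCL, edgeR adjusted p = 8.19e-15). Between ONL and BCL the log2 difference was 0.73 ± 0.54 (edgeR adjusted p = 0.314), with an interval from -0.33 to 1.79. No direction can be read from it, since the value was -0.13 without section 1 and 1.17 without section 4. In the ONL its CPM by section was 24.97, 5.53, 11.4 and 16.1, beside summed ganglion cell markers of 376, 188, 176 and 358 CPM and summed amacrine markers of 373, 195, 183 and 339 CPM. Sections 1 and 4 were the higher ones for Gabrg3 and for both lists, and the part of those cells in the ONL signal was not tested.

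Gabrg1, the gene of the gamma1 subunit, followed the same order at a lower level. It gave 16, 10, 14 and 4 UMIs in the GCL, 4, 2, 0 and 0 in the ONL and 0, 0, 0 and 1 in the BCL. The GCL sections, at 6.83 to 21.5 CPM, lay above all others, whose highest was 4.99 CPM. The test gave a log2 fold change of -2.36 ± 0.56 for ONL over GCL (edgeR adjusted p = 0.00024) and -3.59 ± 0.92 for BCL over GCL (edgeR adjusted p = 0.00132). ONL and BCL were not distinguished (1.23 ± 1.31, edgeR adjusted p = 0.515). Without section 4, which held the only BCL UMI, the BCL stood at 0 and Gabrg1 was still called on the GCL side (edgeR adjusted p = 0.000347). Gabrg1 passed the filter through its GCL UMIs, so this fit adds no independent evidence. In some fits that left out another section it was not tested, as given below.

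The genes most like Gabrg3 over the layers were Sv2c at 0.21, Camk2a at 0.28 and Cacng5 at 0.29 log2 units. Sv2c encodes a synaptic vesicle protein, Camk2a a calcium/calmodulin-dependent kinase and Cacng5 an auxiliary subunit of AMPA receptors. Gabrg3 occupies chr7:56366213-57036936 on the minus strand, 18.2 kb from Gabra5, the gene of the alpha5 subunit. This neighbour was called in the other direction between BCL and GCL, on few UMIs. Gabra5 gave 3, 2, 2 and 5 UMIs in the BCL and 3, 1, 2 and 1 in the GCL, or 14.99 ± 7.01 and 2.53 ± 1.11 CPM (log2 2.25 ± 0.70, edgeR adjusted p = 0.00817). Without section 4, or with edgeR's default filter on low counts, Gabra5 was not called.

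Gabrg1 lies at chr5:70906506-70999960 on the minus strand, 115 kb from Gabra2, 722 kb from Gabra4 and 815 kb from Gabrb1, genes of the alpha2, alpha4 and beta1 subunits. All 3 were higher in the GCL than in the BCL, as Gabrg1 was. Their log2 fold changes of BCL over GCL were -2.15 ± 0.24, -2.93 ± 0.75 and -1.15 ± 0.29 (edgeR adjusted p = 7.95e-11, 0.00134 and 0.00112). Gabra4 rested on 1, 1, 0 and 0 UMIs in the BCL and was not called with edgeR's default filter on low counts.

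Gabrd, the gene of the delta subunit at chr4:155469407-155482872 on the minus strand, had too few UMIs for the test. It gave 4, 8, 8 and 3 UMIs in the GCL, 2, 2, 0 and 0 in the ONL and 1, 0, 0 and 1 in the BCL. Pooled over sections this is 8.55 CPM in the GCL (95% exact Clopper-Pearson interval 5.42 to 12.8), 1.76 in the ONL (0.480 to 4.51) and 2.50 in the BCL (0.302 to 9.02). Such intervals cover counting error only. The GCL sections lay above all ONL sections, and the GCL and BCL ranges overlapped.

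Among the amacrine cells, Gabre and Gabrq separated the dopaminergic cells from their neighbours. Gabre, the gene of the epsilon subunit, gave 7, 3, 8, 3 and 1 UMIs in the TH+ libraries of sections 1 to 5 and 0, 2, 0, 0 and 0 in the TH- libraries. Gabrq, the gene of the theta subunit, gave 2, 7, 4, 4 and 4 in TH+ and 0, 1, 0, 2 and 2 in TH-. For both genes the lowest TH+ library stood above the highest TH- library in CPM, although the TH- libraries were deeper.

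**Figure D3:**
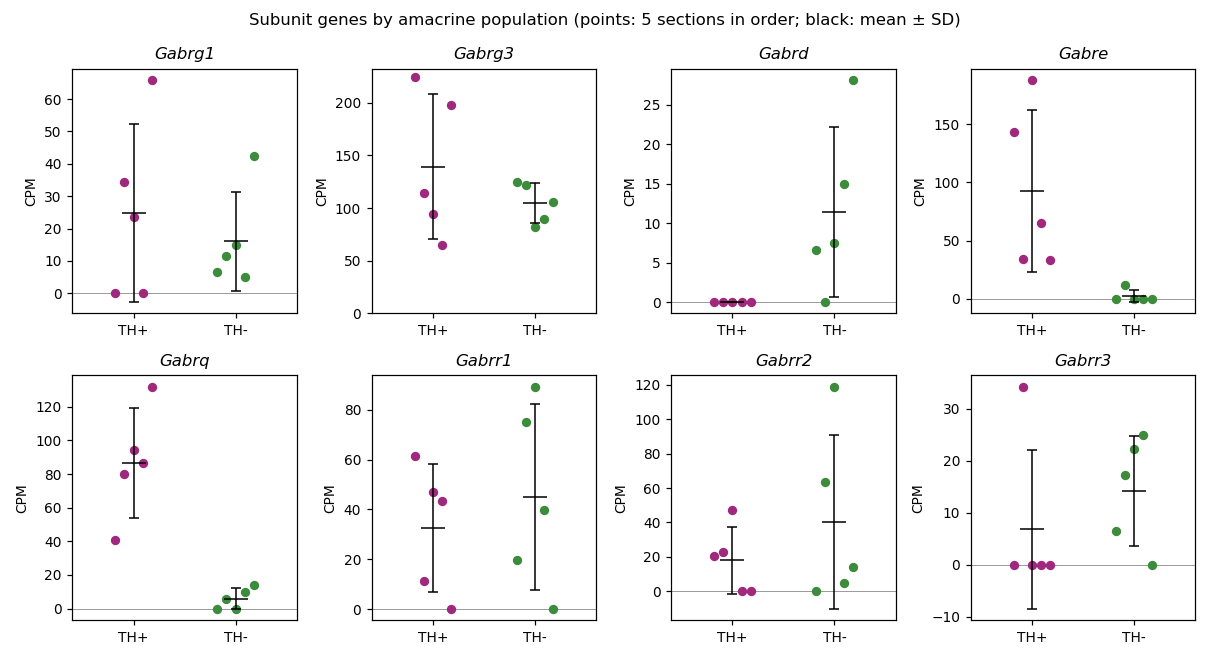
CPM of each of the 8 genes in the 5 sections of the TH+ and TH- populations, with points in section order and black marks for the mean ± SD; every panel has its own linear axis. Gabre spans 33.0 to 188 CPM in TH+ and 0 to 11.6 in TH-, Gabrq 40.8 to 132 and 0 to 14.1, and the other genes overlap.

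Gabre measured 92.7 ± 69.6 CPM in TH+ and 2.31 ± 5.17 in TH- (mean ± SD, n = 5 sections each), and Gabrq 86.7 ± 32.6 and 5.97 ± 6.19. With 22 UMIs against 2, the pooled ratio for Gabre was 34.5, with a counting interval from 8.48 to 303, and with 21 against 5 that for Gabrq was 13.2, from 4.84 to 44.7. In the edgeR test over 6021 genes the log2 fold changes were 4.58 ± 0.75 for Gabre (adjusted p = 5.69e-05) and 3.49 ± 0.62 for Gabrq (adjusted p = 0.00026). Both TH- UMIs of Gabre came from section 2, and without that section it was still called, with every TH- library at 0 (edgeR adjusted p = 9.95e-07). Only 0.747% of all genes were called higher in TH+ and 0.083% higher in TH-, and by p-value Gabre ranked 13 and Gabrq 14.

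The study chose both genes as markers of TH+ cells from these same libraries, so their direction here is not independent evidence. Apart from these libraries, the study reports RNA-FISH in new sections from a littermate, in which both transcripts were enriched in TH+ cells. It also cites earlier work that found both in these cells. Of the 8 genes, 4 passed the filter in TH+ against TH-, Gabre and Gabrq through the TH+ libraries, and 2 were called. Fits without a section or with a replicate block use the same libraries and add no independent evidence. A stricter filter, edgeR's default, removed both genes from the test.

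Both genes lie on the X chromosome, Gabre at chrX:71299605-71318409 on the minus strand and Gabrq at chrX:71868784-71886208 on the plus strand, 550 kb apart. Gabra3, the gene of the alpha3 subunit, lies between them, 158 kb from Gabre and 168 kb from Gabrq. Gabra3 measured 108 ± 63.7 CPM in TH+ and 115 ± 27.1 in TH-, a log2 difference of -0.03 ± 0.34 (edgeR adjusted p = 0.991) with an interval from -0.70 to 0.64. The difference between the populations was therefore large at both outer genes and not detected at the gene between them.

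Because Gabre and Gabrq carry the TH+ difference, their 250 upstream bases are shown in the same way.
Gabre (chrX:71318410-71318659, minus strand): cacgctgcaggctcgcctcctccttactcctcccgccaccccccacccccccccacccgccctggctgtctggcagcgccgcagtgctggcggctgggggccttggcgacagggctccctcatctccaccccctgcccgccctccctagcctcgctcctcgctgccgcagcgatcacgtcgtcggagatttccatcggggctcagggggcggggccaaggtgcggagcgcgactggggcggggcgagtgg
Gabrq (chrX:71868534-71868783, plus strand): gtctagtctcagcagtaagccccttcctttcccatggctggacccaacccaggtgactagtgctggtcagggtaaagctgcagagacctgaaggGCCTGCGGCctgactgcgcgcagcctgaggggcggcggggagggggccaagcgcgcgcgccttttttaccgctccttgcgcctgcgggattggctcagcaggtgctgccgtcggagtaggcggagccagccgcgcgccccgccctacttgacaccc
The window of Gabrq held 1 match, to the AP-2 site, beginning 156 bases before the start, and that of Gabre held none. G and C made up 74.4% of the Gabre and 67.2% of the Gabrq window, against a median of 53.2% over all protein-coding promoters. Among the other members it was 67.2% for Gabrd, 60.8% for Gabrg3, 35.6% for Gabrg1 and 42.8% to 47.2% for the rho genes.

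The study also designed hybridization probes against both transcripts. For each gene 2 probes that lie wholly in coding exons are shown, with capitals for the part that pairs with the RNA, so they read opposite to the transcript.
Gabre exon 1 (chrX:71318259-71318290): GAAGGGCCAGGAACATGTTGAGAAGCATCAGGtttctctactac
Gabre exon 9 (chrX:71301248-71301277): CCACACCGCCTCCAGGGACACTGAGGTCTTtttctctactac
Gabrq exon 1 (chrX:71869084-71869113): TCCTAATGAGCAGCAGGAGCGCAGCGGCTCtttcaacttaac
Gabrq exon 9 (chrX:71881607-71881643): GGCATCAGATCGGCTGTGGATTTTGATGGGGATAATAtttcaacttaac
Of the 30 Gabre probes, 29 lay wholly in coding sequence of GRCm39. Of the 79 Gabrq probes, 31 lay wholly in coding sequence, 1 in part and 6 in an untranslated exon. The other 41 did not lie within an exon of the canonical transcript.

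In the layers Gabre and Gabrq were nearly absent. Gabre gave 2 UMIs, both in the GCL of section 4, and Gabrq 3 UMIs, all in the GCL of section 2. In the ONL and BCL both were at 0, which, taking 3 counts as the limit that a count of 0 allows, leaves room for up to 1.32 CPM in the pooled ONL and 3.74 CPM in the pooled BCL. No layer difference was detectable at this depth.

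The remaining members did not separate the populations. Gabrg3 gave 11, 10, 4, 3 and 6 UMIs in TH+ and 19, 21, 11, 18 and 15 in TH-, or 139 ± 68.8 and 105 ± 18.9 CPM. The ranges overlapped, and the log2 difference was 0.35 ± 0.32 (edgeR adjusted p = 0.840) with an interval from -0.29 to 0.98. Over the 10 amacrine libraries the genes closest to Gabrg3 were Eri3 at 0.20, Urgcp at 0.22 and Bptf at 0.24 log2 units, of which Urgcp rests on 43 UMIs in all.

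Gabrr1 gave 3, 1, 2, 2 and 0 UMIs in TH+ and 3, 13, 12, 8 and 0 in TH-, a log2 difference of -0.50 ± 0.65 (edgeR adjusted p = 0.905) with an interval from -1.77 to 0.77, and its direction turned without section 2 (0.17, also not called). Gabrr2 gave 1, 2, 2, 0 and 0 UMIs in TH+ and 0, 11, 16, 1 and 2 in TH-, and Gabrr3 0, 3, 0, 0 and 0 against 1, 3, 3, 5 and 0. The last 2 were below the filter. Their pooled ratios of TH+ over TH- were 0.523 (0.158 to 1.36) for Gabrr2 and 0.784 (0.142 to 2.91) for Gabrr3, intervals that include equal levels.

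The spread of the rho genes among the TH- libraries was wide and ran beside the bipolar markers. Summed over the 3 genes, TH- sections 1 to 5 held 26.3, 156, 231, 69.9 and 14.1 CPM. The bipolar marker list in the same libraries summed to 447, 1475, 1838, 774 and 352 CPM. Sections 3 and 2 were the highest, and section 5 the lowest, on both measures. In TH+ the rho sums were 81.7, 68.6, 94.1, 43.2 and 0 CPM and the bipolar sums 592, 881, 682, 454 and 231 CPM. None of the 5 bipolar markers was at 0 in either population, and the part of bipolar RNA in the amacrine rho signal was not tested.

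**Figure D4:**
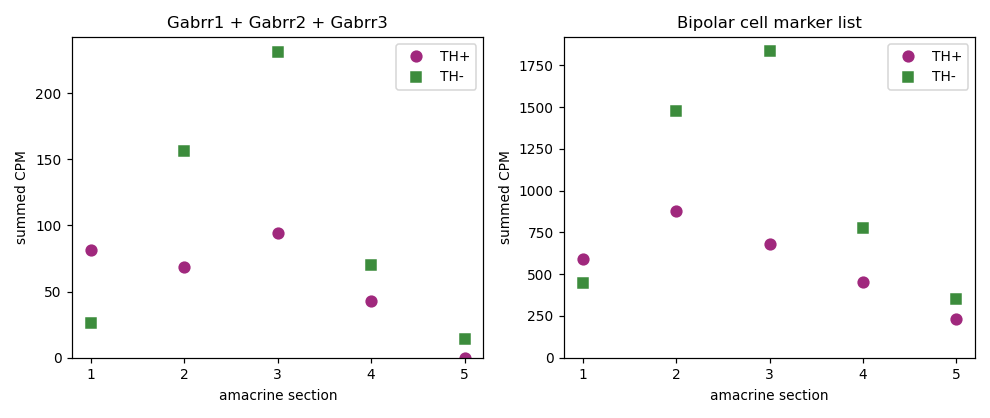
Summed CPM of Gabrr1, Gabrr2 and Gabrr3 (left) and of the bipolar marker list (right) by section, with circles for TH+ and squares for TH- libraries, on linear axes from 0. In the TH- libraries sections 2 and 3 stand highest in both panels, at 156 and 231 CPM for the rho genes and 1475 and 1838 CPM for the markers.

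Gabrg1 gave 0, 3, 1, 0 and 2 UMIs in TH+ and 1, 2, 2, 1 and 6 in TH-, a pooled ratio of 1.57 (0.483 to 4.52). Gabrd had no UMI in any TH+ library and 1, 0, 1, 3 and 4 in the TH- libraries. The absence in TH+ was not informative, since 0 of 255496 UMIs allows up to 11.7 CPM by the same limit of 3 counts and the pooled TH- level was 11.2 CPM.

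To compare levels between genes, CPM was divided by the gene length the authors list, giving CPM per kb. In the BCL the order was Gabrr1 at 124 ± 25.5, Gabrr2 at 77.7 ± 16.3 and Gabrr3 at 19.9 ± 2.78, with every other member below 1, and Gabrr1 held 55.3 ± 6.82% of the summed level of the 8. In the GCL Gabrg3 led with 13.3 ± 1.67, followed by Gabrr2 at 3.07 ± 1.66, Gabrd at 3.00 ± 1.41, Gabrr1 at 2.57 ± 1.41 and Gabrg1 at 2.02 ± 0.852, which did not differ beyond their spread. In the ONL Gabrr2 at 7.05 ± 1.20 and Gabrr1 at 5.40 ± 2.29 were within their spread of each other, ahead of Gabrr3 at 2.77 ± 1.47.

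In TH+ the order of CPM per kb was Gabre at 19.6 ± 14.7, Gabrq at 16.2 ± 6.09, Gabrr1 at 14.3 ± 11.3, Gabrg3 at 11.7 ± 5.76 and Gabrr2 at 8.58 ± 9.27, and no neighbours in it differed beyond their spread. In TH- it was Gabrr1 at 19.6 ± 16.3, Gabrr2 at 19.2 ± 24.1 and Gabrg3 at 8.78 ± 1.59, while Gabrq was at 1.12 ± 1.16 and Gabre at 0.489 ± 1.09. Without division by length Gabrg3 led in both populations, with 34.1 ± 12.2% of the summed CPM of the 8 in TH+ and 47.8 ± 18.9% in TH-. Layers and amacrine populations were separate experiments, so their values stand side by side with no test.

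**Figure D5:**
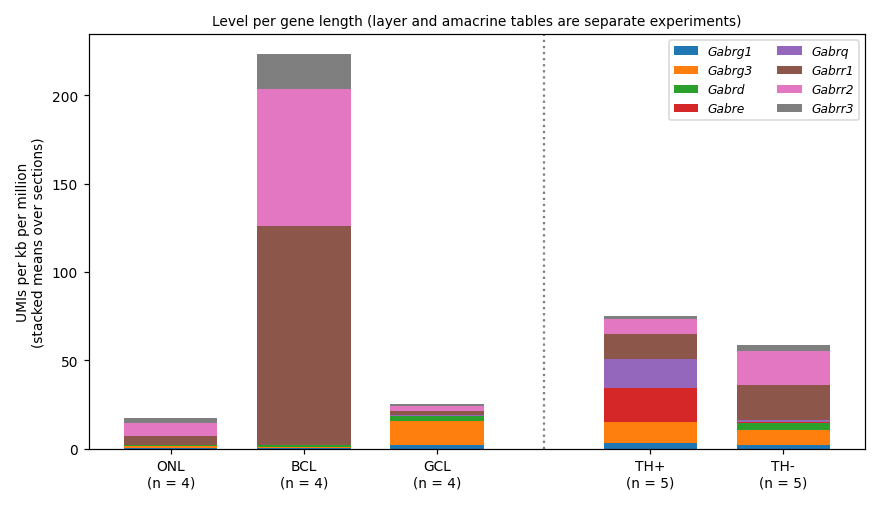
Mean CPM per kb of gene length, stacked over the 8 genes, for the ONL, BCL and GCL (n = 4 sections) and the TH+ and TH- populations (n = 5). The rho genes fill most of the BCL bar, Gabrg3 leads in the GCL at 13.3, and Gabre and Gabrq make up 19.6 and 16.2 of the TH+ bar against 0.489 and 1.12 of the TH- bar.

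The wider GABA pathway was read from a list of 31 genes for other receptor subunits, receptor-associated proteins, GABA synthesis, transport and breakdown, and chloride transport, of which 28 were tested in the layers and 26 in the amacrine cells. Against the ONL, 15 were called higher on the BCL side and 1 on the ONL side, where 18.2% and 18.5% of all genes were called. Among the 3 with the smallest adjusted p was the GABA transporter gene Slc6a11, with a log2 fold change of -2.31 ± 0.16 for ONL over BCL.

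Between ONL and GCL, 23 were called higher on the GCL side and 1 on the ONL side, against 32.2% and 29.3% of all genes. They included the GABA-B receptor gene Gabbr2 (-3.28 ± 0.19 for ONL over GCL) and Abat, the GABA transaminase gene (-2.49 ± 0.15), both among the 3 with the smallest adjusted p. Between BCL and GCL, 5 were called on the BCL side and 16 on the GCL side, against 16.1% and 20.4% of all genes. They included Gad1, which encodes a GABA-synthesizing enzyme (-2.34 ± 0.20 for BCL over GCL), and Gabbr2 (-2.17 ± 0.19), both among the 3 with the smallest adjusted p. The median log2 fold change of BCL over GCL was -0.98 over the tested list and -0.02 over all genes. The rho genes, at 4.39 to 5.35, were thus above the list's highest value, 2.25 for Gabra5.

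In TH+ against TH- cells no gene of the list was higher in TH+ and 2 were higher in TH-, among them Slc6a11 (log2 -0.89 ± 0.17, edgeR adjusted p = 0.00114). With the replicate block 4 were called in the same direction, adding Gad1 and Slc12a5, the chloride exporter gene, while the calls over all genes went from 50 to 148 and those higher in TH- from 5 to 52. Without section 1, 3 or 5 only Slc6a11 was called, 1 gene in each case. Müller glia express Slc6a11, and summed Müller markers were 2287 to 3476 CPM in TH+ and 3248 to 5499 CPM in TH- libraries. Summed amacrine markers were 2000 to 3298 CPM in TH+ and 2649 to 4461 CPM in TH- libraries. Rod markers, given above, were higher in TH+. The part of any of these cells in the Slc6a11 difference was not tested.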

How the data were processed

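Light-Seq counts of wild-type retina were analysed. The deposited values are raw counts of UMIs per gene. Per the labels and methods, the authors extracted UMIs with UMI-tools 1.1.1, aligned reads with STAR 2.7.9a, discarded reads mapping to several places, assigned genes with featureCounts and collapsed UMIs per gene. Gene lengths are the authors' deposited values, listed with the 3T3 counts.

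CPM was taken over the column total. edgeR 4.0.16 (R 4.3.3; TMM, glmQLFit, glmQLFTest) was fitted to all genes kept by filterByExpr with min.count 3 and min.total.count 10, once over 12 layer libraries and once over 10 amacrine libraries. Calls have a Benjamini-Hochberg adjusted p under 0.05; SE is the log2 fold change over the square root of F, and intervals are 95% normal intervals from that SE. Libraries of the same section share tissue by their labels, and their residuals correlated at 0.0116 to 0.0493 in the layers and 0.0287 to 0.257 in the amacrine table; the fits carry no block, and a block was an alternative. DESeq2 1.42.0 was another. The edgeR step was tested on simulated data. Positions and sequences come from GRCm39 with GENCODE vM39, matched by gene identifier for all 8 genes; the canonical transcript gave each start.

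All 8 genes are named in every comparison. Of the pathway list, genes called in TH+ against TH- and the 3 called with the smallest adjusted p per layer comparison are named, as are listed subunit genes within 1 Mb of a member, and the 3 most alike genes of members with at least 100 UMIs in a table; some genes these rules name are not reported here. Members and lists were chosen with earlier results of these data known. The human culture files, a deeper sequencing run and a pooled layer library were not used here.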

Additional observations from a re-analysis of the deposited data

Results flagged for a closer look

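In 7 of the 35 groups of sections with any spread, 1 section stood apart from the others by its gap to the nearest, relative to the group's range. The cut-off flags about 1 in 20 groups of normally distributed values. Counts this low are not normally distributed, so that rate is no yardstick for the number flagged. In 5 of them every other section was at 0, so that a few UMIs made the gap: Gabre in TH- section 2 (11.6 CPM from 2 UMIs), Gabrr3 in TH+ section 2 (34.3 CPM from 3 UMIs), Gabre in GCL section 4 (3.41 CPM from 2 UMIs), Gabrq in GCL section 2 (4.50 CPM from 3 UMIs) and Gabrg1 in BCL section 4 (4.94 CPM from 1 UMI). Gabrg1 in TH- section 5 stood high at 42.3 CPM from 6 UMIs. Gabrr2 in ONL section 2 stood low at 11.1 CPM from 8 UMIs, below 3 sections that lay between 15.98 and 16.23 CPM.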

How the results depend on the processing

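The call or direction of each member and list was recomputed with DESeq2, other size factors, other filters, a replicate block, without mitochondrial genes and without each section. The members called between ONL and GCL ranged from 3 to 5 over the fits that left out a section, with 3 without section 1, where Gabrg1 was no longer tested (nor was it without section 2 or under the default filter), and 6 with no low-count filter, which brought in Gabrd on the GCL side. Gabrd was also called there without section 4, where Gabrr2 was not, so that 4 of the 5 genes called were those called with all sections. Under edgeR's default filter 0 members were called in TH+ against TH-, since only Gabrg3 was tested. For the pathway list in that comparison 4 genes were called with no low-count filter, 4 with the replicate block and 4 without sections 2 and 3 together, a choice made after seeing the data, and 1 to 3 over the fits that left out a section. The block changed no member call. The 2 weaker member calls are those of Gabrr1 and Gabrr2 between ONL and GCL given above.

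Column totals without TMM factors shifted the median log2 fold change of all genes by -0.34 for ONL over BCL, -0.17 for ONL over GCL and 0.17 for BCL over GCL, and the share of calls higher in the first layer went from 50.5% to 29.3% for ONL over BCL and from 44.1% to 55.7% for BCL over GCL, with the same members called. Without division by gene length, Gabrr2 held 27.6% rather than 42.2% of the 8 genes' level in the ONL and Gabrg3 79.1% rather than 54.3% in the GCL. In the amacrine populations the leading gene itself changed. In TH+ Gabre went from 23.6% to 22.1%, behind Gabrg3 at 34.1%, and in TH- Gabrr1 went from 30.8% to 16.8%, behind Gabrg3 at 47.8%. Of the 8 genes, 4 had too few UMIs in the amacrine libraries to be tested, and the TH+ libraries held at most 87449 UMIs each.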

Other observations

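The same method was run on mouse 3T3 fibroblasts in mixed cultures. In 3 wells with 540880 mouse UMIs in all, none of the 8 genes had a UMI, which allows up to 5.55 CPM by the limit of 3 counts. All 8 were listed there.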
